A study of Arabidopsis arenosa x Arabidopsis thaliana and Arabidopsis thaliana and Arabidopsis arenosa with 5 samples.

Results

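In an allotetraploid of A. thaliana and A. arenosa, each gene can be read from an A. thaliana allele and an A. arenosa allele, and the deposited tables give each of them its own value. The genes described here are those whose A. thaliana allele was listed at 0 in every listed transcript of the F8 allotetraploid but not in A. suecica, a natural allotetraploid species with the same parentage. There were 82 such genes among the 10890 of the F8 table, or 0.753%. They came from 120 genes at 0 in F8, of which 37 were also at 0 in A. suecica and 1 lies in a segment of chromosome 3 that was left out. Of the 82, 78 were listed in A. suecica with an A. thaliana value above 0, and the other 4 (AT3G11580, CML41, XTH18 and XTH19) were not listed there, so their state in A. suecica is unknown. All 82 were listed in the F1. The genes were thus chosen by the F8 and A. suecica values of the A. thaliana allele, which are described without a test.

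The study sequenced mRNA from rosette leaves of 5 tetraploid groups before bolting: F8 allotetraploids and F1 resynthesized allotetraploids of A. arenosa x A. thaliana, A. suecica, autotetraploid A. arenosa of ecotype Care-1, and autotetraploid A. thaliana of ecotype Landsberg erecta. By its title, it asked how cis and trans regulatory differences between the parent species shape expression in their allopolyploids. All groups grew in 16 h of light at 22 C and 8 h of dark at 20 C. Leaves of A. thaliana came at 3 to 4 weeks of age and those of the other groups at 6 to 7 weeks, so the parents differ in age as well as species. F8 and A. suecica had 1 library each, and the F1 and each parent 3 replicate columns, which the labels do not tie to separate plants. P-values therefore measure the spread between these columns, which may be technical. The deposited unit is RPKM, a read density scaled to transcript length and library size, and the depth behind it is unknown. The 5 leaf marker genes were listed in every library, with summed levels of 23556 RPKM in F8, 3390 to 19482 RPKM in the F1 replicates, 19313 RPKM in A. suecica, 17893 to 22872 RPKM in A. arenosa and 3213 to 28384 RPKM in A. thaliana. Among 6 flower markers, none was listed in the allotetraploids, and in the parents their summed level was 8.83 to 19.8 RPKM in A. arenosa and 1.24 to 2.18 RPKM in A. thaliana. Among 3 root markers, 1 was listed there, at 6.91 RPKM in F8, 4.42 to 6.74 RPKM in the F1 and 25.9 RPKM in A. suecica.

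An allopolyploid joins the genomes of different species, so most genes are present as homoeologs, copies that were separated by speciation and now share a nucleus. Homoeologs can be expressed equally, in favour of one species' copy, or from that copy alone. An RNA value does not tell an allele that is present and silent from one that is absent, and cells with fewer transcripts cannot be told apart from fewer such cells in the leaf.

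Some of the 82 are similar copies of one another within A. thaliana, and their sequences show where a short read can tell such copies apart. The reads were 60 to 83 bases long. An allele can be assigned only where a read covers a base that differs between the alleles. No A. arenosa sequence was compared here, so the bases marked below differ between A. thaliana gene copies, not between alleles. PSAH2 (chr1:19454798-19455668, plus strand) and PSAH-1 (chr3:5467987-5469594, minus strand) both encode subunit H of photosystem I, and both were members. Their coding sequences of 438 bases each differ at 57 positions, and 87.0% are identical. In the 60-base window in which they are most alike, coding bases 141 to 200, they differ at 2 positions, shown in capitals.
PSAH2: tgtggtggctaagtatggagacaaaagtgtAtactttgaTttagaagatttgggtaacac
PSAH-1: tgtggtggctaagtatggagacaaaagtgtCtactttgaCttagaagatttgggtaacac

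AT1G57660 (chr1:21355475-21356637, plus strand) and AT1G57860 (chr1:21429826-21430910, minus strand) both encode L21, a protein of the large ribosomal subunit. Their coding sequences of 495 bases each differ at 4 positions and share a stretch of 206 bases. Even the window in which they differ most, bases 310 to 369, holds 2 differences.
AT1G57660: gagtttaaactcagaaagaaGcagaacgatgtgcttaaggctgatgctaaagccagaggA
AT1G57860: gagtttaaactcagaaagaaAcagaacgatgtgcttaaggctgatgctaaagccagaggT

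Sequences and positions are those of the RefSeq annotation of TAIR10.1, in which all 82 genes were found. Among the 81 members with a coding sequence, 17 (21.0%) shared a stretch of 60 or more coding bases with another gene, against 550 of 10787 genes of the F8 table (5.10%). The members' median transcript was 1393.5 bases long, against 1746.5 bases over the F8 table. The 17 include AT1G57660 and AT1G57860, each with 51.1% of its 60-base stretches shared. The shared part was smaller in XPB2 (8.1%), SAG24 (6.4%), AOC3 (1.9%), ACLA-2 (1.8%), XTH19 (1.2%) and XTH18 (1.1%). Reads from such stretches leave the allele values of the 17 uncertain to a degree that is not known. The part that shared sequence or transcript length has in a value of 0 was not tested. The members lay on all 5 chromosomes, 20 on chromosome 1, 10 on chromosome 2, 26 on chromosome 3, 12 on chromosome 4 and 14 on chromosome 5. Chromosome 3 had the highest share of its listed genes, 1.19%, and chromosome 5 the lowest, 0.546%.

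In F8, the A. arenosa allele carried the whole listed level of these genes, 2.72 to 1345 RPKM with a median of 13.3 RPKM. The total over all genes of the F8 table had a median of 13.9 RPKM. The table lists only totals above 2 RPKM, so a member with both alleles near 0 could not appear. The values just above the threshold were 0.00593 RPKM in BAM6, a beta-amylase, 0.0159 RPKM in AT5G19960 and 0.0285 RPKM in RPS5A, a ribosomal protein gene that has another transcript at 0. The next were 0.112 RPKM in AT2G04795, 0.117 RPKM in CYP71B12 and 0.127 RPKM in CYP71B26.

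The only run of 3 or more consecutive listed genes held 6 members on chromosome 3, spanning 49.4 kb. In order they are AT3G50660 (DWF4, chr3:18813949-18817405), AT3G50670 (U1-70K, chr3:18826160-18829684), AT3G50685, AT3G50690, AT3G50700 (IDD2, chr3:18840411-18843053) and AT3G50750 (BEH1, chr3:18861749-18863397). DWF4 is the cytochrome P450 that hydroxylates the side chain of brassinosteroid precursors, a rate-limiting step in making these growth hormones. BEH1 is a homolog of BES1 and BZR1, the transcription factors through which brassinosteroids act. U1-70K is a core protein of the U1 particle that recognises the start of introns, and IDD2 is a zinc finger protein of the INDETERMINATE DOMAIN family. AT3G50690 encodes a leucine-rich repeat protein.

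After BEH1 came 1 gene that was not a member, AT3G50760 (GATL2), and then member AT3G50770 (CML41, a calmodulin-like protein, chr3:18873911-18874836), 60.9 kb in all from DWF4. In F8, GATL2 had 2.95 RPKM from its A. arenosa allele and 5.17 RPKM from its A. thaliana allele, so its A. thaliana share was 63.7%. Both figures for the A. thaliana allele were lower than elsewhere. In F1 replicates 1 to 3 it had 10.6, 12.7 and 15.7 RPKM (75.5, 77.6 and 82.9%), and in A. suecica 18.9 RPKM (72.7%). Of the 12 protein-coding genes from DWF4 to CML41, 8 were listed in F8 and 7 were members. The 4 not listed were AT3G50710, AT3G50720, AT3G50730 and UGT72E1, a glucosyltransferase of lignin precursors. The first 3 of these stayed below 2 RPKM in each parent library. UGT72E1 had 11.7 to 18.5 RPKM in A. arenosa and 18.2 to 30.4 RPKM in A. thaliana, and it was listed in the F1 and A. suecica. Over F1 replicates 1 to 3, its A. thaliana allele stood at 5.20, 10.2 and 10.6 RPKM. Its A. arenosa allele stood at 2.68, 4.58 and 5.54 RPKM. In A. suecica the levels were 20.8 RPKM (A. thaliana allele) and 0.246 RPKM (A. arenosa allele). Why UGT72E1 is missing from the F8 table was not tested. On either side of the stretch from DWF4 to CML41, AT3G50590 had an A. thaliana share of 30.1% and AT3G50780 one of 38.2% in F8.

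**Figure D1:**
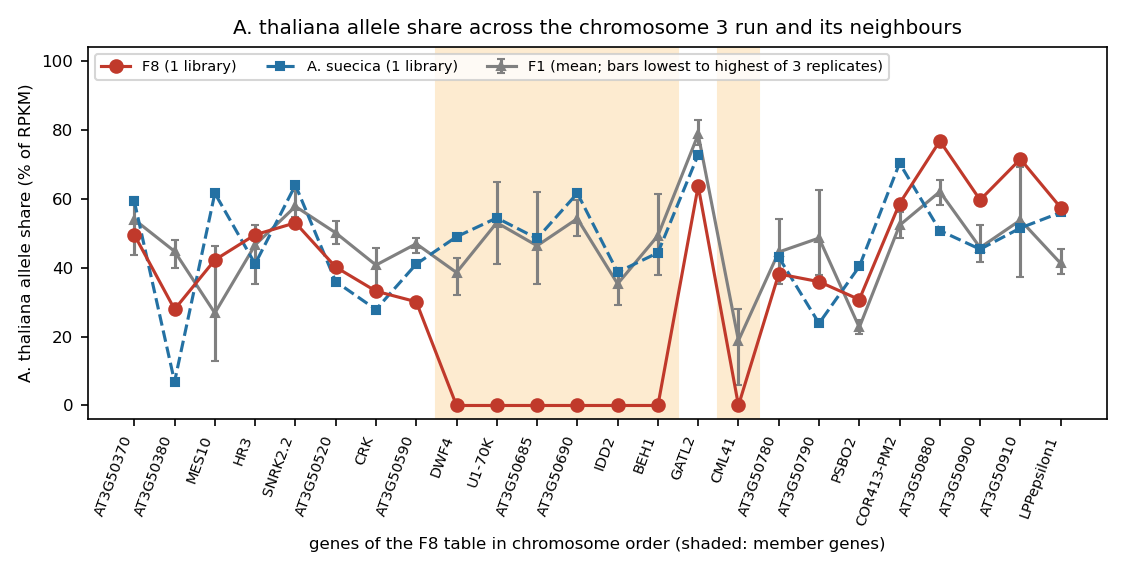
A. thaliana allele share, in percent of the RPKM of both alleles, for the genes of the F8 table around the run, in chromosome order (not to distance), in F8, in A. suecica and in the F1 (mean of 3 replicates, bars from lowest to highest). The 7 shaded genes are members, which the rule put at 0 in F8, while the run itself was at 38.7 to 61.6% in A. suecica, and GATL2 between BEH1 and CML41 was at 63.7% in F8.

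In the F1, the A. thaliana alleles of the 6 run genes were expressed, with shares of 29.2 to 59.6% of the gene in replicate 1, 36.7 to 53.4% in replicate 2 and 32.0 to 64.8% in replicate 3. DWF4 had 2.51, 3.10 and 2.56 RPKM from the A. arenosa allele and 1.75, 2.31 and 1.20 RPKM from the A. thaliana allele in F1 replicates 1 to 3. These 2 sets did not overlap, but its sum was below the 5 RPKM set for testing. U1-70K had 12.9, 8.55 and 5.05 RPKM from the A. arenosa allele and 8.91, 9.79 and 9.29 RPKM from the A. thaliana allele. BEH1 had 6.33, 12.5 and 14.1 RPKM from the A. arenosa allele and 3.84, 11.9 and 22.4 RPKM from the A. thaliana allele. In both genes the values of the alleles overlapped. The log2 ratio of A. arenosa over A. thaliana allele was -0.15 for U1-70K (SE 0.25, adjusted p = 0.68), 0.21 for AT3G50685 (SE 0.30, adjusted p = 0.629), -0.21 for AT3G50690 (SE 0.17, adjusted p = 0.385) and 0.01 for BEH1 (SE 0.25, adjusted p = 0.975), by limma with Benjamini-Hochberg adjustment over all genes compared. IDD2 had 9.64, 9.40 and 10.5 RPKM from the A. arenosa allele and 3.97, 5.45 and 6.99 RPKM from the A. thaliana allele, with no overlap, and the log2 ratio was 0.77 (SE 0.18, limma adjusted p = 0.0246), short of 2-fold. That p was 0.0525 without F1 replicate 1 and 0.106 without F1 replicate 2.

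CML41, beyond GATL2, was called toward A. arenosa in the F1. Its A. arenosa allele had 16.4, 7.52 and 17.3 RPKM and its A. thaliana allele 1.01, 2.21 and 6.74 RPKM, so that the log2 ratio was 1.92 (SE 0.37, limma adjusted p = 0.0149). In A. suecica the A. thaliana allele took 48.9% of DWF4, 54.4% of U1-70K, 48.5% of AT3G50685, 61.6% of AT3G50690, 38.7% of IDD2 and 44.3% of BEH1. None of the 6 run genes was called between the parents in limma. Of all genes compared, 10.7% were called higher in A. arenosa and 4.21% lower, so the count for the run stands near the background. The smallest adjusted p was that of DWF4, 0.215, for a log2 difference of 0.59 (A. arenosa minus A. thaliana), with 4.43, 6.62 and 6.32 RPKM in A. arenosa and 2.55, 2.95 and 5.37 RPKM in A. thaliana. Without A. thaliana replicate 3 that p was 0.0471, and AT3G50685 passed with a log2 difference of 1.68 (limma adjusted p = 0.0228). Without A. arenosa replicate 1, IDD2 passed with 1.31 (limma adjusted p = 0.0263).

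In F8, the A. arenosa allele of the run genes was above its F1 mean in all 5 compared. That held for 75% of members and 54.9% of all genes compared. The median log2 difference of the 5 was 0.55, whereas their median for the total was -0.42. By the rule, the F8 A. arenosa value of a member is its whole total, so its difference from the F1 is tied to the split of that total. Without F1 replicate 1, the A. arenosa allele was below its F1 mean in AT3G50690 (-0.16) and BEH1 (-0.23). The F8 total was 78.9% of the F1 mean total for DWF4, 72.6% for U1-70K, 99.0% for AT3G50685, 51.0% for AT3G50690, 96.8% for IDD2 and 47.2% for BEH1, and 28.0% for CML41. BEH1 had 11.2 RPKM from its A. arenosa allele in F8, inside the 6.33 to 14.1 RPKM of the F1, and no A. thaliana part. AT3G50685 had 82.7 RPKM from its A. arenosa allele in F8, against 34.4, 58.2 and 37.1 RPKM in the F1 replicates. With 1 F8 library, none of these differences has a replicate check.

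The brassinosteroid list of 22 genes had 16 in the F8 table, and DWF4 and BEH1 were the 2 among them at 0, against 1.10% of the whole table, a count that the rule itself fixes. Of the 15 compared in the F1, 1 was called toward A. arenosa, BR6OX2, which makes the last steps of the hormone (log2 ratio 1.503, limma adjusted p = 0.0107), and 0 toward A. thaliana, against 8.46% and 4.42% of all genes compared, so the counts stand near the background. The receptor BRI1 had an A. thaliana share of 53.8% in F8 and the factors BZR1 and BES1 had 48.2% and 60.7%. CPD, another cytochrome P450 of the synthesis pathway, had 50.9%. The U1 list had 3 genes, all in the F8 table, of which U1A had an A. thaliana share of 43.7% and U1C one of 43.5%. Of 12 genes of silencing and DNA methylation, 5 were in the F8 table, none of them a member, and 1 of these 5 was called toward A. arenosa in the F1. None of the 3 glucosyltransferases of lignin precursors was in the F8 table, and the 5 leaf markers held no member. The letters CGTGTG and CGTGCG, to which BES1 and BZR1 are known to bind, and CACGTG, the G-box, were absent on both strands from the 250 bases before the DWF4 and BEH1 starts. They were in 3, 1 and 6 members' windows of 82 (3.66, 1.22 and 7.32%), against 5.27, 1.73 and 7.65% of 10832 windows of the F8 table.

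Over all members, the F1 read most of these genes more from the A. arenosa allele. Of the 72 members compared there, 54 were called toward A. arenosa (adjusted p under 0.05 and at least 2-fold, limma), against 8.46% of the 10223 genes compared. None was called toward A. thaliana, against 4.42% of those genes. The median log2 ratio was 2.17, against 0.05 for all genes compared, and 70 of the 72 ratios were above 0. In F1 replicates 1 to 3, the A. thaliana share was under 50% in 91.5, 95.1 and 93.9% of members. Over all genes of the F1 table the figures were 56.3, 53 and 50.3%. Every A. arenosa value was above every A. thaliana value in 64 of 82 members, against 19.2% of genes. A member is in the F8 table only through its A. arenosa allele, while other genes could be listed through either allele. In F8 that allele had a median of 13.3 RPKM over members, against 6.91 RPKM over the table. This limits every comparison of members with all genes toward A. arenosa, and its part in the counts was not tested.

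In the F1, many members had an A. thaliana value near 0.1 RPKM. A value under 0.15 RPKM stood in 7, 12 and 24 of 82 members in F1 replicates 1 to 3, against 0.318, 0.672 and 1.40% of all genes of the F1 table. It stood in at least 1 replicate of 28 members (1.99% of genes). Whether such a value was measured or stands in for an allele without reads is not known. Ratios that include such a value depend on it, and so do their SEs and p-values. Among members without any, 35 of 49 were called toward A. arenosa, against 7.95% of such genes, with a median log2 ratio of 2.02, against 0.04.

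The A. thaliana share of members had a median of 22.1, 16.2 and 9.65% in F1 replicates 1 to 3, against 48.1, 49.1 and 49.9% over the F1 table. In A. suecica it was 29.4%, against 50.8% over that table, and 69 of 78 members were below 50%, against 48% of genes. The rule asks for an A. suecica share above 0 where the gene is listed, so the A. suecica median is a description. The run, split off after its shares were seen, had medians of 39.4, 45.7 and 57.6% in the F1 replicates and 48.7% in A. suecica, and the members outside it 21.2, 15.9 and 9.27% and 26.9%.

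**Figure D2:**
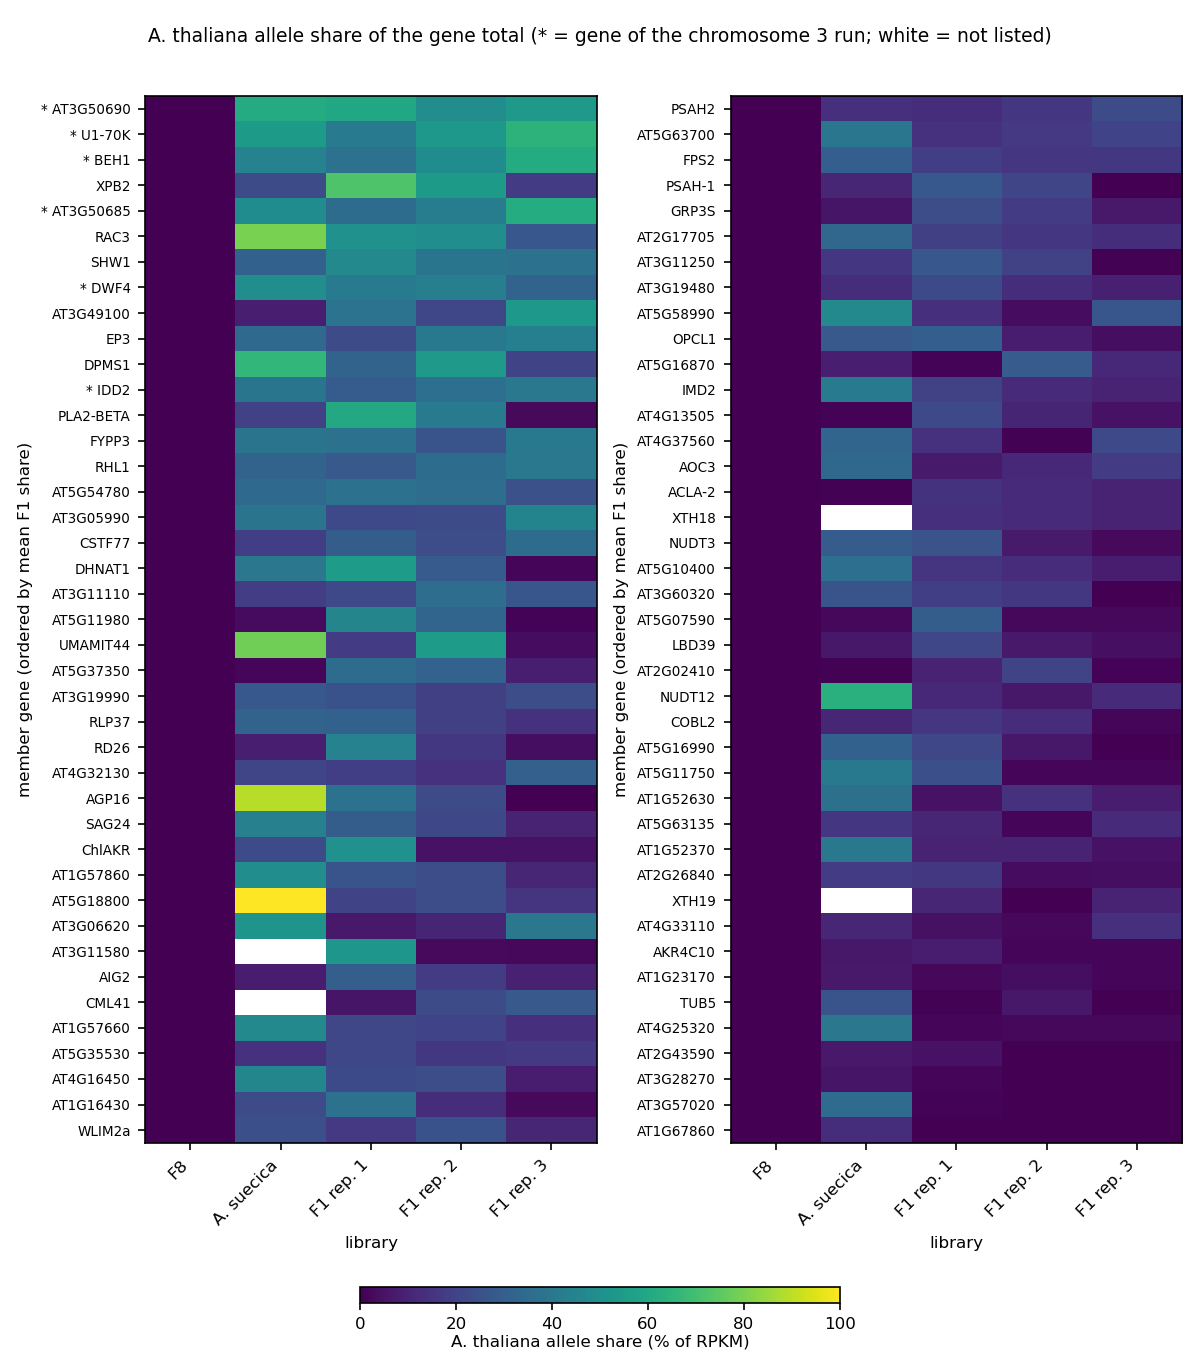
A. thaliana allele share, as a colour from 0 to 100% of the RPKM of both alleles, of the 82 members (rows, ordered by their mean F1 share) in F8, in A. suecica and in F1 replicates 1 to 3; white marks genes not listed in A. suecica. F8 is at 0 by the rule, the starred run genes stand near the top, and the lowest rows, such as AT1G67860, are near 0 in every F1 replicate.

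In the parents, of 74 members compared, 16 were called higher in A. arenosa (10.7% of all genes compared), and none was lower (4.21%). The median log2 difference was 0.73, against 0.31 for all genes compared, and 0.42 relative to that shift. After centring on the median of all genes the count was 7, or 9.46%, against 6.80% of genes, and none was lower, against 6.41%. Single libraries moved the count of 16, which was not centred. It was 6 without A. thaliana replicate 2, 7 without A. arenosa replicate 2 and 27 without A. thaliana replicate 3. In RPKM, the members' median was 18.8 in A. arenosa and 11.3 in A. thaliana, against 14.2 and 11.8 RPKM over the genes of the F8 table. The A. thaliana allele in the F1 had a median of 2.99 RPKM over members and 7.36 RPKM over all genes of the F1 table.

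Of the 10 ribosome and translation genes, all 9 compared in the F1 were called toward A. arenosa. Over all members compared the share was 75%, and over all genes 8.46%. The group's median log2 ratio was 2.16, near the 2.17 of all members. AT1G57660 had 87.7, 111 and 126 RPKM from the A. arenosa allele and 23.5, 27.9 and 20.0 RPKM from the A. thaliana allele in the F1 (log2 ratio 2.13, SE 0.19, limma adjusted p = 0.00266). Its near-copy AT1G57860 had 44.5, 55.6 and 87.6 RPKM and 15.6, 17.02 and 10.3 RPKM in the same order. SAG24, which encodes ribosomal protein L10, had 73.7, 88.6 and 198 RPKM from the A. arenosa allele and 30.6, 24.7 and 21.7 RPKM from the A. thaliana allele. AT5G35530, ribosomal protein S3, had 53.4, 66.0 and 78.1 RPKM and 14.4, 12.6 and 16.1 RPKM in the same order. In none of these 4 did the allele values overlap. Every A. arenosa value was above every A. thaliana value in 64 of 82 members and in 19.2% of genes. In F8 the A. arenosa alleles stood at 214, 183, 249 and 127 RPKM for AT1G57660, AT1G57860, SAG24 and AT5G35530, in each case above all 3 F1 values of that allele. The same held for 42 of 82 members and 26.9% of genes.

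Photosystem I subunit H, the polypeptide at the docking site of light-harvesting complex II, is encoded by 2 members. PSAH2 had 293, 676 and 782 RPKM from the A. arenosa allele and 43.8, 128 and 230 RPKM from the A. thaliana allele in the F1, and its log2 ratio was 2.29 (SE 0.20, limma adjusted p = 0.00265). PSAH-1 had 316, 659 and 1218 RPKM from the A. arenosa allele and 120, 175 and 0.0897 RPKM from the A. thaliana allele, and the log2 ratio was 4.47 with an SE of 1.63 (limma adjusted p = 0.085). It passed without F1 replicate 3, with a log2 ratio of 1.65 and an adjusted p of 0.00169. The summed leaf markers had the same order over F1 replicates 1 to 3, at 3390, 8764 and 19482 RPKM, and 23556 RPKM in F8, and their part in these levels was not tested. In F8 the A. arenosa alleles of the PSAH genes reached 1315 RPKM and 1345 RPKM, and in A. suecica the A. thaliana alleles had 181 and 156 RPKM, 13.95 and 10.77% of the gene.

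The cell wall, surface and cytoskeleton group had 6 of 7 members called toward A. arenosa in the F1. The shares beside it were 75% of all members compared and 8.46% of all genes. TUB5, a beta-tubulin, had 73.7, 127 and 168 RPKM from the A. arenosa allele and 0.422, 8.83 and 0.102 RPKM from the A. thaliana allele (log2 ratio 5.56, SE 0.61, limma adjusted p = 0.00361). AGP16, an arabinogalactan protein, had 146, 171 and 161 RPKM from the A. arenosa allele and 88.1, 52.1 and 0.103 RPKM from the A. thaliana allele, and its log2 ratio of 3.20 did not pass (SE 1.17, adjusted p = 0.0844). It passed without F1 replicate 1, at 4.44 (limma adjusted p = 0.0215), and without F1 replicate 3, at 1.21 (limma adjusted p = 0.0146). XTH18 and XTH19, enzymes that cut and rejoin xyloglucan, are adjacent genes. XTH18 had 26.3, 50.8 and 38.2 RPKM from the A. arenosa allele and 4.28, 6.98 and 4.12 RPKM from the A. thaliana allele.

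Defence and hormone genes included 12 members, of which 8 of 9 compared were called toward A. arenosa. Again, 75% of all members compared and 8.46% of all genes were called so. The chitinase-family gene AT2G43590 had 428, 125 and 365 RPKM from the A. arenosa allele and 22.3, 0.1004 and 0.0973 RPKM from the A. thaliana allele, and the log2 ratio was 6.47 with an SE of 0.71 (adjusted p = 0.00361). It was also higher in the parent A. arenosa, by 3.89 on the log2 scale (limma adjusted p = 0.00989, and 0.05003 without A. arenosa replicate 3). AOC3, an allene oxide cyclase of jasmonate synthesis, had 90.8, 80.2 and 127 RPKM from the A. arenosa allele and 7.18, 10.4 and 26.5 RPKM from the A. thaliana allele (log2 ratio 2.85, adjusted p = 0.00265). OPCL1, a ligase later in the same pathway, had a log2 ratio of 2.92 (adjusted p = 0.0144).

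The largest F1 ratio was that of AT1G67860, a gene of unknown function, with 230, 469 and 457 RPKM from the A. arenosa allele and 0.102, 0.0914 and 0.0958 RPKM from the A. thaliana allele (log2 ratio 8.39, SE 0.23, limma adjusted p = 8.59e-05). With a variance trend over the ratio in place of the level, that p was 0.695, and that of AT2G43590 was 0.146. The ratio of AT1G67860 and its SE rest on A. thaliana values near 0.1 RPKM, which may not be measured levels. AT1G67860 was among 4 members with an A. thaliana value under 0.15 RPKM in all 3 F1 replicates. The other 3 were AT3G28270, AT3G57020 and AT4G25320, an AT-hook DNA-binding protein, and 0.118% of F1 genes had such values. In A. suecica these 4 had 26.4, 7.32, 3.56 and 2.69 RPKM from the A. thaliana allele, and the parent A. thaliana expressed AT1G67860 at 199, 253 and 152 RPKM.

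The remaining groups differed in how many members were called, beside 75% of all members compared and 8.46% of all genes. Metabolic genes had 9 of 10 called toward A. arenosa, among them ACLA-2, a subunit of ATP-citrate lyase, IMD2, an isopropylmalate dehydrogenase of leucine synthesis, and FPS2, a farnesyl diphosphate synthase (log2 ratios 2.17, 2.48 and 1.73). Photosynthesis and respiration genes had 3 of 5, transcription, RNA and chromatin genes 7 of 12, signalling and transport genes 5 of 10, and genes of other or unknown function 7 of 10. Among the members not called were RAC3, a small GTPase (0.41, adjusted p = 0.297), XPB2, a DNA repair helicase (0.09, adjusted p = 0.894), and DPMS1, a dolichol phosphate mannose synthase (0.81, adjusted p = 0.13). These groups were made by hand after the values were seen, so their counts are only descriptions.

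**Figure D3:**
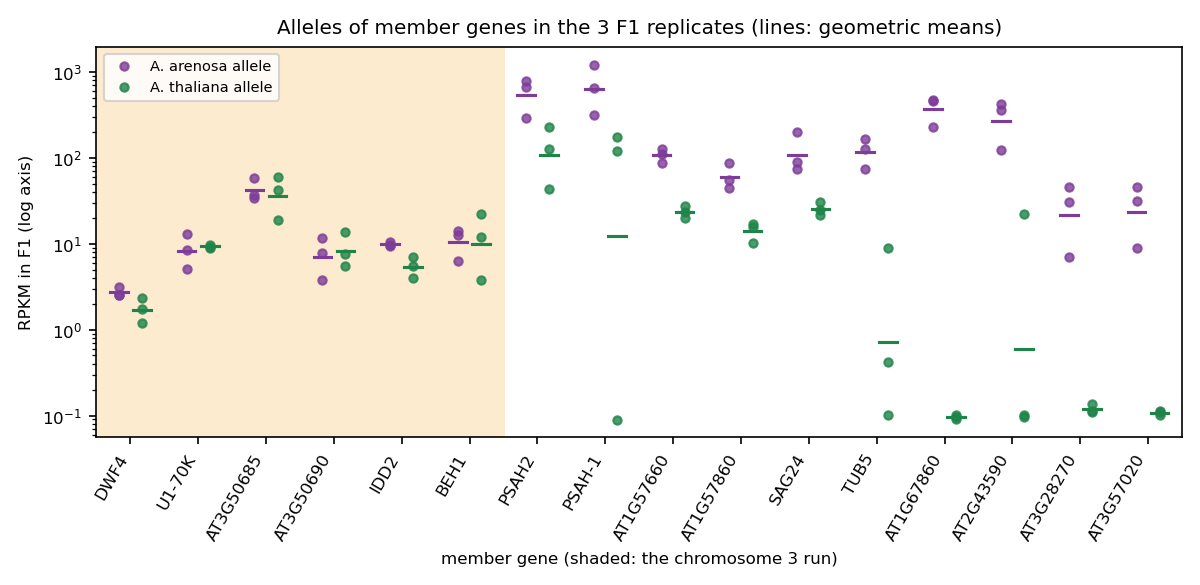
RPKM of the A. arenosa allele (left, purple) and the A. thaliana allele (right, green) of 16 members in the 3 F1 replicates, on a log axis, with lines at geometric means and the run genes shaded. Alleles of the run genes lie close together, while the A. thaliana values of AT1G67860, AT3G28270 and AT3G57020 are near 0.1 RPKM in every replicate.

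Because the F8 A. arenosa value of a member is its whole total, its difference from the F1 is tied to the split of that total, and the total is the measure free of the split. The A. arenosa allele of members was higher in F8 than in the F1 by a median of 0.37 on the log2 scale (all genes compared 0.06), whereas the total differed by a median of 0.04 (all genes -0.00). The A. arenosa allele in F8 lay above every F1 value in 42 of 82 members (26.9% of genes), within them in 28 and below every one in 12 (26.3%). The total lay above in 28 (26.9%), within in 29 and below in 25 (30.6%). Where a 2-fold size is asked, the A. arenosa allele was higher in 8 of 72 members (3.05%) and lower in 6 (7.34%), and the total was higher in 5 of 74 (2.27%) and lower in 9 (4.74%). Without F1 replicate 1, the higher counts were 3 for the A. arenosa allele and 2 for the total. These are sizes without a test, as F8 had 1 library. In limma with the F8 library taken to vary like the F1, no gene passed (lowest member adjusted p = 0.208, with an unadjusted p under 0.05 in 10 of 72 members and in 9.28% of all genes).

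The 8 genes with a 2-fold higher A. arenosa allele were AT1G57860 (log2 difference 1.59), ACLA-2 (1.45), TUB5 (1.29), PSAH2 (1.29), SAG24 (1.18), PSAH-1 (1.08), AT3G28270 (1.04) and AT4G37560 (1.04). ACLA-2 had 27.5 RPKM from the A. arenosa allele in F8, against 12.5, 9.60 and 6.90 RPKM in the F1, and its total was higher by 1.29. TUB5 had 286 RPKM in F8 against 73.7, 127 and 168 RPKM in the F1. The 6 with a 2-fold lower A. arenosa allele were AT4G13505 (-2.64), CML41 (-1.27), XTH18 (-1.23), RD26 (-1.19), LBD39 (-1.15) and AOC3 (-1.08). RD26 and LBD39 are transcription factors of abscisic acid response and of nitrogen response. RD26 had 4.12 RPKM from the A. arenosa allele in F8, against 14.9, 7.44 and 10.9 RPKM in the F1. AT4G13505 is a non-coding transcript antisense to another gene, and without strand its reads cannot be told from those of its partner.

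The difference between F8 and F1 moved with the level of a gene. Among all genes with an F1 total of at least 100 RPKM, the median of the total was 0.53 higher in F8 (log2, 703 genes), against -0.07 among genes of 5 to 20 RPKM (5914 genes). The 10 members of at least 100 RPKM had a median of 0.26. PSAH2, PSAH-1, TUB5, AT1G57660, AT1G57860 and SAG24 are in or near that top range, and the part of level in their differences was not tested.

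**Figure D4:**
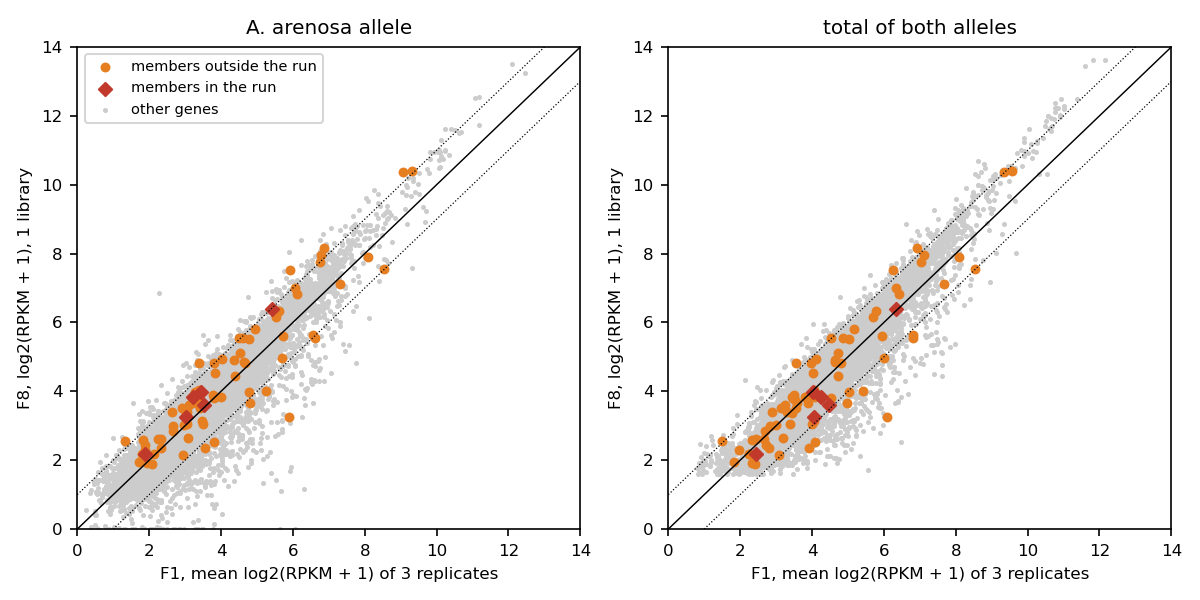
F8 against the mean of the 3 F1 replicates, both as log2(RPKM + 1), for the A. arenosa allele (left) and the total of both alleles (right), with members in orange, run members in red and other genes in grey; the solid line is equality and the dotted lines are 2-fold. Members lie on average above the line for the A. arenosa allele and around it for the total, and the 703 genes with an F1 total of at least 100 RPKM have a median 0.53 above it.

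A. suecica also read many members more from the A. arenosa allele. Of 64 members compared, 33 were at least 2-fold toward A. arenosa (12.9% of genes) and 4 toward A. thaliana (11.3%), with a median log2 ratio of 1.06 against -0.03. The A. arenosa allele was at least 2-fold higher in F8 than in A. suecica in 24 of 68 members (13.8%) and lower in 2 (17.3%). The rule builds in part of this difference, because the A. arenosa value of a member is its whole total in F8 and only part of its total in A. suecica, so nothing is read from it. The total of both alleles was at least 2-fold higher in F8 in 14 of 69 members (9.51%) and lower in 7 (13.3%), with a median log2 difference of 0.10 against -0.22 for all genes compared. F8 and A. suecica had 1 library each, so neither comparison was tested.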

How the data were processed

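The authors deposited RPKM values of transcripts for the parents and of each allele for the allotetraploids, on TAIR9 per the submitters' processing notes. Neither the aligner nor the rule for assigning reads to alleles was given in the sources used here. In the F8 and A. suecica tables, the sum of both alleles has at most 6 digits in 100% of transcripts, while single alleles have more. Depth is unknown, so no counting interval is given.

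Each gene was represented by 1 transcript. Values were compared as log2(RPKM + 1), which understates differences of low genes, where a level of 5 RPKM was reached. F1 allele ratios within replicates and parental differences were tested with limma 3.58.1 (R 4.3.3), Benjamini-Hochberg adjusted over all genes, and called at adjusted p under 0.05 and 2-fold; F8 and A. suecica, with 1 library each, were compared by size. The fits were tested on simulated data with known shifts and recovered part of them, so a gene that was not called may still differ. Other work used Python 3.11.15, numpy 2.4.6, pandas 2.3.3 and matplotlib 3.10.9. The parents' replicate numbers gave correlations of deviations of 0.056, -0.163 and 0.189 and do not pair the libraries.

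Members and lists were chosen with earlier results of these data known. The limit of 0.15 RPKM, the variance trend over level, the functional groups, the 60-base check, the motif search and the sequence windows were chosen after values were seen. Named genes are those in the run, the 8 highest A. arenosa values in F8, the 8 highest A. thaliana values in the F1, the 6 highest and 6 lowest F8 minus F1 differences, the 6 highest A. thaliana values in A. suecica, the 6 largest F1 calls and list members; others named were chosen after their values were seen.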

Additional observations from a re-analysis of the deposited data

Results flagged for a closer look

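In 4 members, A. suecica lay toward A. thaliana while every F1 replicate lay toward A. arenosa, by the log2 of A. arenosa over A. thaliana allele. The A. suecica ratio was -0.64 for NUDT12 (F1 replicates 2.32, 2.68 and 1.99), -2.87 for AGP16 (0.73, 1.69 and 7.20), -0.08 for AT3G06620 (2.71, 2.29 and 0.49) and -3.76 for AT5G18800 (1.77, 1.55 and 2.19). AT5G18800 was listed in A. suecica at 0 RPKM for A. arenosa and 12.6 RPKM for A. thaliana. The difference between A. suecica and the F1 was not tested, since A. suecica had 1 library.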

How the results depend on the processing

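The count of members called toward A. arenosa in the F1 ranged from 52 to 59 over all alternatives and when leaving out 1 replicate at a time, and none was called toward A. thaliana under any. A variance trend over the ratio, which was replaced after its results were seen, gave 52. The number of members was 69 with an F8 total of at least 5 RPKM and 85 with an A. thaliana allele below 0.1 RPKM. The count higher in A. arenosa among the parents was 16, 7 when centred on the median, and 6 to 27 when leaving out 1 library; a fit with the replicate numbers as a block gave 15 and is given only as a check, since the numbers do not pair the libraries. The count with a 2-fold higher A. arenosa allele in F8 was 3 without F1 replicate 1 and 3 to 11 over the replicates left out; limma with the lone F8 library gave 0 higher and 0 lower, against 8 and 6 by size. The lower count was 4 to 8 over the replicates left out. The total was 2-fold higher in 2 members without F1 replicate 1 and in 2 to 7 over the replicates left out, and 2-fold lower in 9 to 12. Setting F1 value pairs that recur in 50 or more transcripts to missing, an alternative added after seeing the data, left the member counts as they were by construction, since 0 members hold such a pair. No called result changed direction under the alternatives run. Values that were not called did: the F1 log2 ratio was 0.15 for U1-70K without F1 replicate 3 (reported -0.15), -0.11 for AT3G50685 without F1 replicate 1 (reported 0.21) and -0.28 for BEH1 without F1 replicate 1 (reported 0.01), and parental and F8 minus F1 differences near 0 also changed sign, such as -0.17 for the parental difference of AT1G57860 when centred. These values have no direction to report, and the cause of these differences was not tested. The smallest F8 total listed was 2.00119 RPKM, so low members cannot be seen, and with 1 library F8 has no replicate error.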
